A study of Homo sapiens with 32 samples.

Results

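The bins described here are the stretches of the human genome with a middling base composition. They are the autosomal 100 kb bins of GRCh38, counted from the first base of each chromosome, in which at least 50% of the bases are known and the GC content lies from 39% to under 42%. The rule used the reference sequence and no measured value, and 6520 of 27614 autosomal bins met it, which is 23.6% of them and 650 Mb of known sequence. Of these mid-GC bins, 2103 had no base in a protein-coding gene, 2132 had at least 80% of their bases inside such genes, and the others were partly covered by them.

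U-DNA-Seq locates uracil in genomic DNA by capturing sonicated fragments on ΔUNG, a FLAG-tagged glycosylase that binds uracil but no longer cuts it out, and sequencing them beside the input. The values were the covered share of known bases, meaning the percentage of a bin or class of bins that lay in uracil enriched regions, in 14 libraries of HCT116 cells (2 replicates of each of 7 conditions) and a single K562 library. HCT116 is a colorectal carcinoma line deficient in mismatch repair (MMR), and conditions whose names end in MMR used its MMR proficient version with an added chromosome 3. K562 is a leukaemia line, and its cells were wild type and not treated.

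WT cells received neither drug nor transgene. The NT_UGI and NT_UGI_MMR cells received no drug, but stably expressed UGI, which blocks uracil-DNA glycosylase, together with EGFP after retroviral transduction. The 5FdUR_UGI and 5FdUR_UGI_MMR cells carried the same transgene and were kept in 20 µM 5-fluoro-2'-deoxyuridine (5FdUR) for 48 h. The RTX_UGI and RTX_UGI_MMR cells carried it too and were kept in 100 nM raltitrexed (RTX) for 48 h. The drug-treated libraries numbered 8 and the non-treated HCT116 libraries 6. All drug-treated cells expressed UGI, whereas 2 of the 6 non-treated libraries, those of WT cells, did not.

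5FdUR, through its monophosphate, and RTX both inhibit thymidylate synthase, the enzyme that makes dTMP from dUMP, and DNA polymerases then place dUMP opposite adenine. Uracil-DNA glycosylase normally removes such uracil. Per the paper, 5FdUR is also built into DNA as fluorouracil, which the capture on ΔUNG detects too. The enriched regions do not tell it from uracil, so coverage with 5FdUR may include it. In the human genome GC content, gene density and early replication go together, so a relation of uracil to genes is hard to read across the whole genome, whereas among bins of nearly equal GC content the number of genes still varies widely.

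A short stretch is shown from a bin of each of 4 kinds that recur below. Their likeness in GC content follows from how they were chosen. Each stretch has 300 bases of the GRCh38 forward strand, lies near the middle of its bin, was chosen to lie within 1 percentage point of the GC content of that bin, and has its CpG dinucleotides in capitals. The first is from an intron of DAB1, at chr1:57749901-57750200, in a bin wholly inside a long gene. The second is from an intron of TNFRSF21, at chr6:47250301-47250600, in a run of bins more covered in every drug-treated library. The third is from an intron of the long non-coding RNA gene LINC01811, at chr3:34150001-34150300, in a run of bins less covered in every drug-treated library and without a protein-coding gene. The fourth has no annotated gene and is from the centromeric part of chromosome 18, at chr18:17949901-17950200, in a bin made of a repeated unit.
DAB1 intron: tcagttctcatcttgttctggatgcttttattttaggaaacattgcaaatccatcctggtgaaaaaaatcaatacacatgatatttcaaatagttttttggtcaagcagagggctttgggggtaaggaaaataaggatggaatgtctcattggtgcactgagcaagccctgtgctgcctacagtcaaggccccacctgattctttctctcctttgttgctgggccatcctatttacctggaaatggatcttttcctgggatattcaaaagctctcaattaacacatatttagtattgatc
TNFRSF21 intron: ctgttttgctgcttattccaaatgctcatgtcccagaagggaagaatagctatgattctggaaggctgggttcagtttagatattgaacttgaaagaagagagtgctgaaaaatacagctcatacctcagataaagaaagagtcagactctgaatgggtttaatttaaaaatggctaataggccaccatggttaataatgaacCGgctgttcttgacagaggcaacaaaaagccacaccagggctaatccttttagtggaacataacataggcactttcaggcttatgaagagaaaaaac
LINC01811 intron: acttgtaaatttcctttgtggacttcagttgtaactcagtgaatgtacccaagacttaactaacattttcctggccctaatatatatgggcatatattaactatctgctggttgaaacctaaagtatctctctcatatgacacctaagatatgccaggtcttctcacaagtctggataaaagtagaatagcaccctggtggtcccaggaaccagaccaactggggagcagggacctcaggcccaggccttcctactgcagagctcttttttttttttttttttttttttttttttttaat
centromeric repeat: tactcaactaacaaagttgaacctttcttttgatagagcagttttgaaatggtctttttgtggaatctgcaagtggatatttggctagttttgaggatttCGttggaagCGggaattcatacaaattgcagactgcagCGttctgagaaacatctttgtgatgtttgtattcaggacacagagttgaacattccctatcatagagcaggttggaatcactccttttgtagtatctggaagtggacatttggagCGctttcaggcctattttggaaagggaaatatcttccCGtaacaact
Their GC contents were 40.0%, 39.7%, 39.3% and 39.7%. They held 0, 1, 0 and 5 CpG dinucleotides and 100, 76, 105 and 100 thymines on the strand shown.

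The repeated sequence is described first, since it touches the gene-free class. In 279 mid-GC bins at least 50% of the 24-base words occurred more than once within the bin, and 278 of these bins had no protein-coding gene, which is 13.2% of the gene-free class. The authors kept only uniquely mapped reads and removed segments of low mappability, and these bins together were at most 0.104% covered in any of the 15 libraries. Of the 300 mid-GC bins without a region in any library, 260 were of this kind. The 4 longest runs of adjacent gene-free bins, on chromosomes 18, 17, 11 and 1, were 5200, 4000, 3300 and 2800 kb long and consisted of 52 of 52, 38 of 40, 33 of 33 and 28 of 28 such bins. No library exceeded 0.872% coverage in any of these runs. The main values for gene-free bins are therefore also given without them.

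Mid-GC bins were more covered in the drug-treated libraries. In the non-treated libraries the covered share of all mid-GC bins was lowest at 3.69%, had its median at 4.36% and was highest at 5.05%. In the drug-treated libraries it was 15.6% and 14.8% in 5FdUR_UGI, 18.6% and 20.5% in 5FdUR_UGI_MMR, 15.2% and 16.3% in RTX_UGI, and 20.0% and 17.7% in RTX_UGI_MMR. The classes did not overlap, and K562 had 4.31%. Total coverage was set by the authors when they chose a threshold for each library, so each value was divided by the covered share of all autosomal bins of the same library, 11.3% to 11.6% without drug and 17.6% to 19.7% with drug.

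On the log2 scale this relative coverage was -1.41 ± 0.15 (SD, n = 6) without drug and -0.09 ± 0.18 (SD, n = 8) with drug. The difference of 1.32 was larger than the spread between libraries in a two-sided exact permutation test (p = 0.000333, the smallest that 3003 arrangements allow). It held after Benjamini-Hochberg adjustment of the exact p over 8 contrasts (adjusted p = 0.00266). Where the 7 conditions stood in for the libraries, the exact p was 0.0286, the smallest of that design, and missed the threshold after adjustment (adjusted p = 0.114). That adjustment covered only the drug-treated against non-treated contrasts. The non-treated libraries were all below 0, and 3 of the 8 drug-treated libraries were above it. The 5FdUR and RTX libraries had relative coverage of -0.06 ± 0.20 (SD, n = 4) and -0.13 ± 0.17 (SD, n = 4), a difference of 0.07 that did not pass (exact p = 0.657, adjusted p = 0.657).

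The window lies just above the GC content at which the mean covered shares of both classes, not divided by total coverage, were close. In bins of 38% to under 39% GC the mean was 8.90 ± 0.57% (SD, n = 6) without drug and 9.80 ± 3.22% (SD, n = 8) with drug. The conditions were not alike there. The 5FdUR_UGI libraries, with 6.12% and 7.84%, were below all non-treated libraries (8.02% to 9.60%), and 5FdUR_UGI_MMR, with 11.1% and 16.0%, above them. In the 1% classes starting at 39%, 40% and 41% it was 5.84%, 3.97% and 2.73% without drug, against 13.9%, 17.2% and 22% with drug. Coverage without drug thus declined through the window while coverage with drug increased. At the lower limit, the bins within 0.25 percentage points below 39% GC (662 bins) had 6.22% to 7.91% without drug and those within 0.25 above it (657 bins) had 5.64% to 7.18%. In the drug-treated libraries the same bins had 6.65% to 16.4% outside and 9.52% to 17% inside. At the upper limit, the bins within 0.25 percentage points below 42% GC (458 bins) had 22.8% to 27.9% with drug, and those within 0.25 above it (409 bins) had 19.1% to 27.5%.

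**Figure D1:**
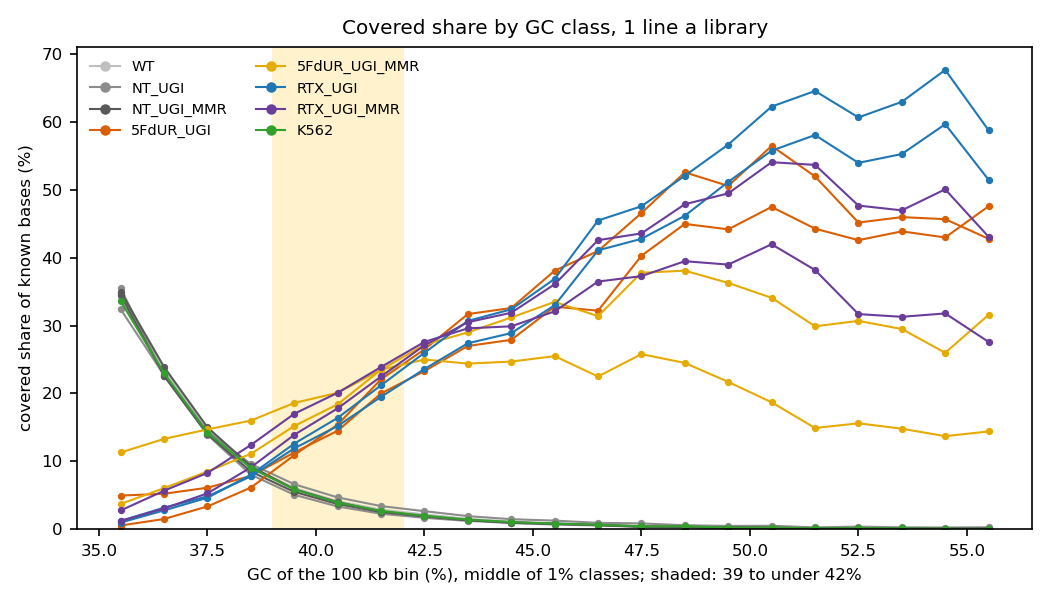
Covered share of known bases (%, vertical axis) in autosomal 100 kb bins by 1% class of GC content (horizontal axis), with 1 line for each of the 15 libraries and the mid-GC window shaded. From 34.4% on average at 35% GC the non-treated lines descend to 0.270% at 50% GC, the drug-treated lines climb up to the window and through it, and the lines cross near its lower limit. Above 48% GC both 5FdUR_UGI_MMR lines descend, to 34.1% and 18.7% at 50% GC.

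Uracil enriched regions filled these bins in different ways with and without drug. No mid-GC bin was 50% covered in a non-treated library or in K562, and the highest bin reached 38.3%. In the drug-treated libraries 8.85% to 18.8% of the mid-GC bins were at least 50% covered. At the other end, bins without any region made up 14.6% to 23.8% of the mid-GC bins without drug and 45.4% to 55.4% in the 4 RTX libraries. The 5FdUR_UGI libraries had 53.1% and 30.1%, and the 5FdUR_UGI_MMR libraries 15.8% and 14.5%. The lowest log2 value of enriched over input coverage in a region was 0.20 and 0.13 in 5FdUR_UGI_MMR. It was 0.25 and 0.14 in 5FdUR_UGI, 0.25 to 0.27 with RTX and 0.25 to 0.33 without drug. The part of these unlike limits in the differences between conditions was not tested. Over the 6520 bins the replicates of a condition correlated with r of 0.599 to 0.653 without drug, 0.825 and 0.878 with 5FdUR, and 0.977 and 0.962 with RTX, where neighbouring bins share regions and are not independent.

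Gene share divided the mid-GC bins in the drug-treated libraries, and the highest coverage was found in bins partly occupied by genes. The mean GC content of the gene share classes differed little, between 40.3% and 40.5%. Without drug the covered share was nearly flat over these classes. It averaged 4.13% in bins without a gene, 4.78% at gene shares above 0 to under 50%, 4.83% at 50% to under 80%, 4.71% at 80% to under 95% and 3.81% at 95% or more. K562 ran from 3.81% to 4.91% over the same classes.

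The RTX libraries had the steepest profile. Bins without a gene were 4.31%, 4.71%, 6.75% and 5.11% covered in RTX_UGI replicates 1 and 2 and RTX_UGI_MMR replicates 1 and 2. Bins of 50% to under 80% gene share were 29%, 31.2%, 36.2% and 33.3% covered in the same order. Bins of 95% or more were lower again, at 13.3%, 14.2%, 18.1% and 16.2%. In the gene-free class the RTX libraries overlapped the non-treated libraries, which lay between 3.6% and 4.93%, whereas in each class with genes the RTX and non-treated libraries did not overlap and RTX was the higher. Without the repeated bins the gene-free values were 4.97% to 7.76% with RTX and 4.15% to 5.68% without drug.

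In 3 of the 4 5FdUR libraries the most covered class was that of above 0 to under 50% gene share, and in 5FdUR_UGI replicate 1 that class and the next had 27.2% and 27.5%. The MMR states were far apart in the gene-free bins. Those bins were 8.65% and 11.2% covered in 5FdUR_UGI and 19.3% and 22.3% in 5FdUR_UGI_MMR, and without the repeated bins 9.96% and 12.9%, and 22.2% and 25.7%. At gene shares above 0 to under 50% both conditions overlapped, with 27.2% and 25.1% in 5FdUR_UGI and 25% and 26.9% in 5FdUR_UGI_MMR. At 95% or more the values were 7.67% and 7.51% in 5FdUR_UGI and 13.3% and 14.5% in 5FdUR_UGI_MMR. The differences between MMR states rest on 2 libraries a side, which cannot reach 0.05, and were not tested.

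The ratio of bins of at least 80% gene share to gene-free bins was formed within each library. On the log2 scale it was 1.95 and 1.92 in RTX_UGI and 1.69 and 1.94 in RTX_UGI_MMR. It was 0.17 and -0.35 in 5FdUR_UGI, -0.51 and -0.61 in 5FdUR_UGI_MMR, and -0.15 to 0.07 in the non-treated libraries. Without the repeated bins it was 1.48 to 1.74 with RTX, -0.03 and -0.56 in 5FdUR_UGI, -0.71 and -0.81 in 5FdUR_UGI_MMR, and -0.36 to -0.14 without drug. The drugs did not overlap. The mean was -0.32 ± 0.35 (SD, n = 4) with 5FdUR and 1.87 ± 0.12 (SD, n = 4) with RTX, a difference of -2.20 (exact p = 0.0286, the smallest that 70 arrangements allow) that missed the threshold after adjustment (adjusted p = 0.0571) and passed it without 5FdUR_UGI_MMR replicate 2 (-2.10, adjusted p = 0.0457). Drug-treated and non-treated libraries differed by 0.81 (exact p = 0.138, adjusted p = 0.165), a mean of libraries on both sides of 0, and by 0.18 (exact p = 0.635) where gene-free bins were set against genic neighbours within 1 Mb. With all annotated genes in place of protein-coding genes both passed after adjustment. The difference was 1.52 (exact p = 0.0233, adjusted p = 0.0381) for drug-treated against non-treated. It was -2.43 (adjusted p = 0.0381) for 5FdUR against RTX, where the exact p was still 0.0286.

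**Figure D2:**
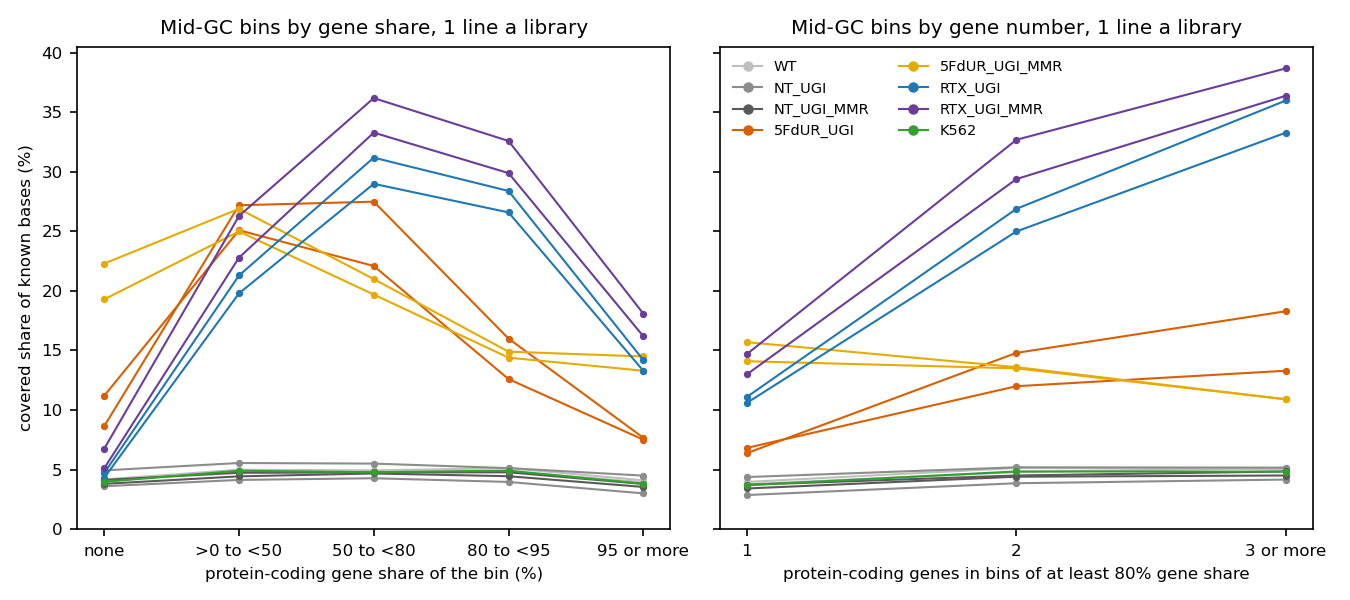
Covered share of known bases (%, vertical axis) in mid-GC bins by protein-coding gene share (left) and, for bins of at least 80% gene share, by the number of protein-coding genes (right), with 1 line for each of the 15 libraries. The RTX lines climb with gene number to between 33.3% and 38.7%, the 5FdUR_UGI_MMR lines end at 10.9%, and the non-treated lines stay under 6%.

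Gene number was compared among bins of at least 80% gene share. Gene share was not matched further, and the median gene number was 2 at 80% to under 95% and 1 at 95% or more. Of the bins of at least 80% gene share, 1393 overlapped 1 protein-coding gene, 464 overlapped 2, and 275 overlapped 3 or more. With RTX, bins of 1 gene were 10.6% to 14.7% covered, bins of 2 genes 25% to 32.7%, and bins of 3 or more genes 33.3% to 38.7%, so the classes did not overlap. With 5FdUR_UGI the same classes had 6.38% and 6.82%, 14.8% and 12%, and 18.3% and 13.3%. The 5FdUR_UGI_MMR libraries ran the other way, with 14.1% and 15.7%, 13.5% and 13.6%, and 10.9% in both. Without drug the means were 3.68%, 4.64% and 4.81%.

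As a log2 ratio of 3 or more genes to 1 gene, the values were 1.66 and 1.69 in RTX_UGI, 1.39 and 1.48 in RTX_UGI_MMR, 1.52 and 0.96 in 5FdUR_UGI, -0.37 and -0.53 in 5FdUR_UGI_MMR, and 0.24 to 0.54 without drug. The mean was 0.98 ± 0.91 (SD, n = 8) with drug and 0.39 ± 0.10 (SD, n = 6) without, a difference of 0.58 that did not pass (exact p = 0.145, adjusted p = 0.165). Without 5FdUR_UGI_MMR replicate 2 the difference was 0.80 (exact p = 0.0268, adjusted p = 0.0457). The 5FdUR and RTX libraries differed by -1.16 (exact p = 0.0857, adjusted p = 0.137). For drug-treated against non-treated, all annotated genes in place of protein-coding genes gave 1.06 (adjusted exact p = 0.0381) and bins of 50 kb gave 0.27 (adjusted exact p = 0.262).

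The surroundings of a bin were described by the GC content of the 500 kb on each side, the bin itself left out. In the RTX libraries, mid-GC bins with flanks under 39% GC (1107 bins) were 11.1% to 17.3% covered, and those with flanks of 42% or more (1536 bins) were 26.6% to 29.7% covered. The 5FdUR libraries had 14.5% to 22.2% and 14.6% to 18%. Non-treated libraries had 4.48% to 5.69% and 3.66% to 5.21%. The bins with GC-rich flanks also had a higher GC content themselves, 40.8% on average against 39.9%. Gene-free bins did not share the order of the RTX libraries, with 4.46% to 6.04% at flanks of 42% or more and 5.89% to 9.28% at flanks under 39%. Bins of at least 80% gene share had 29.5% to 33% and 11.1% to 18.1%.

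The log2 ratio of GC-rich to GC-poor flanks was 1.26 and 1.21 in RTX_UGI, 0.78 and 1.09 in RTX_UGI_MMR, 0.31 and -0.08 in 5FdUR_UGI, -0.12 and -0.35 in 5FdUR_UGI_MMR, and -0.30 to -0.13 without drug. The difference was 0.76 for drug-treated against non-treated libraries (exact p = 0.02, adjusted p = 0.0571) and -1.14 for 5FdUR against RTX (exact p = 0.0286, adjusted p = 0.0571). Both missed the threshold after adjustment, and the second had the smallest p that 4 against 4 libraries allow. Averaged over 6 classes of 0.5% GC of the bins themselves, the first was 0.09 (exact p = 0.777, adjusted p = 0.777) and the second -1.27 (exact p = 0.0286, adjusted p = 0.0762), and in bins of 200 kb they were 0.33 and -0.69. Without 5FdUR_UGI_MMR replicate 2 both passed after adjustment, with 0.88 (exact p = 0.00524, adjusted p = 0.021) and -1.05 (exact p = 0.0286, adjusted p = 0.0457). The exact p of the second was the same as with all libraries, so its adjusted value moved with the other contrasts.

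**Figure D3:**
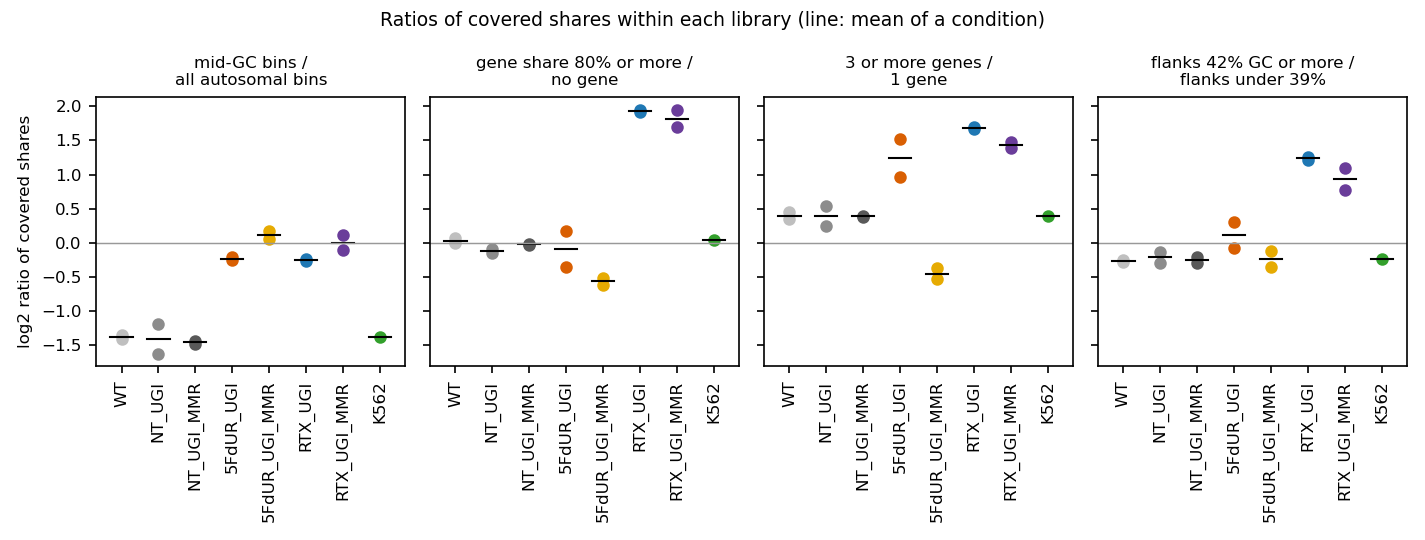
Log2 ratio of covered shares (vertical axis) within each library, by condition (horizontal axis), with 1 point a library and a line at the mean of the condition. The ratios are mid-GC bins over all autosomal bins, bins of at least 80% gene share over gene-free bins, bins of 3 or more genes over bins of 1 gene, and bins with flanks of 42% GC or more over those with flanks under 39%. RTX points are above all others in the gene share ratio, between 1.69 and 1.95.

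The place of a bin within or between genes was examined after the values above were seen, so these values are a description without a test. Bins that held a protein-coding gene start (2519 bins) were 26.7% to 33.2% covered with RTX and 19.7% to 25.8% with 5FdUR. Bins that lay inside genes without a start or an end (1153 bins) were 8.62% to 12.2% and 5.04% to 14.9% covered. Bins with a gene end but no start (745 bins) had 16.8% to 24.7% with RTX and 15.2% to 22.4% with 5FdUR. They lay between the other classes in the RTX and 5FdUR_UGI libraries, and above both in 5FdUR_UGI_MMR, where they had 21.2% and 22.4% against 19.7% and 21.0% in bins with a start. Without drug the 3 classes averaged 4.74%, 3.52% and 4.79%.

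Inside genes, coverage with RTX was lower in each longer class of genes. In the RTX libraries bins inside genes under 300 kb (380 bins) were 19.9% to 26.2% covered. Bins inside genes of 300 kb to under 600 kb (456 bins) had 4.20% to 7.64%, those of 600 kb to under 1 Mb (183 bins) 1.74% to 2.55%, and those of 1 Mb or more (134 bins) 0.83% to 1.37%. At 600 kb to under 1 Mb and at 1 Mb or more the RTX libraries were all below the non-treated libraries. Those had 2.66% to 4.68% and 2.86% to 4.22%. The 5FdUR_UGI libraries did not decline throughout. They had 9.16% and 8.54% in the shortest class, 1.05% and 3.05% at 600 kb to under 1 Mb, and 3.52% and 4.56% in the longest. The 5FdUR_UGI_MMR libraries had 15.4% and 16% in the shortest class and 9.08% and 10.9% in the longest. Mean flank GC content also differed between these classes, at 42% for the shortest genes and 40.7% for the longest, and its part in the difference was not tested.

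Outside genes, distance to the nearest protein-coding gene had a similar relation. Gene-free bins under 100 kb from a gene (880 bins) were 9.07% to 14% covered with RTX, and those at 100 kb to under 500 kb (797 bins without repeated sequence) 1.22% to 2.24%. At 500 kb or more (148 bins without repeated sequence) the RTX libraries had 0.00504% to 0.195%. Non-treated libraries had 3.79% to 5.50%, 4.46% to 5.85% and 4.60% to 5.89% in the same 3 classes. The 5FdUR_UGI libraries had 17% and 18.5%, then 3.76% and 7.82%, then 1.16% and 6.81%. The 5FdUR_UGI_MMR libraries declined more slowly, from 27% and 29.7% to 19.3% and 23.5% and to 9.11% and 12.3%. With the repeated bins, the most distant class had 415 bins and RTX values of 0.0136% to 0.128%.

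A profile around gene starts gave coverage at 10 kb steps. It was drawn for the 355 protein-coding genes of at least 100 kb whose start lay in a mid-GC bin and which had no other protein-coding gene within 100 kb upstream. Only the start had to lie in a mid-GC bin, so GC content was not held along the profile. The profile too was chosen after the values were seen. From 30 to 20 kb upstream of the start, coverage was 36.7% and 30.5% in 5FdUR_UGI, 23.7% and 28.1% in 5FdUR_UGI_MMR, 20.1% and 24.6% in RTX_UGI, and 26.4% and 24.9% in RTX_UGI_MMR. From 20 to 30 kb downstream it was 7.85% and 10.9%, 18.8% and 23.4%, 11.3% and 12.5%, and 17.8% and 13.4% in the same order. The step at the start was sharpest in 5FdUR_UGI, where the first 10 kb upstream had 34.3% and 35.3%.

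Non-treated libraries had the opposite slope across these starts. Their mean was 2.89% in the 10 kb before the start and 8.23% from 80 to 90 kb downstream, and K562 had 2.30% and 9.39%. At 80 to 90 kb downstream the non-treated libraries had 6.45% to 9.51%. The RTX_UGI libraries, with 5.80% and 6.30%, and 5FdUR_UGI replicate 1, with 3.57%, were below all of them, and 5FdUR_UGI replicate 2 had 7.19%. The 5FdUR_UGI_MMR libraries, with 14.7% and 16.8%, and RTX_UGI_MMR replicate 1, with 12.7%, were above all of them.

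Named genes were taken from the annotation: 7 of the 8 protein-coding genes that overlap the most mid-GC bins. DAB1, an adaptor of reelin signalling, had 13 such bins at chr1:56994778-58546734 and RBFOX1, a neuronal splicing regulator, had 13 at chr16:5239802-7713340. CTNNA2, a catenin of neurons, had 8 at chr2:79185231-80648861, and RUNX1, a transcription factor of blood formation, had 8 at chr21:34787801-36004667. ERC2, a scaffold of the presynaptic zone, had 7 at chr3:55508311-56469095, and FHIT, a dinucleoside triphosphate hydrolase in a common fragile site, had 7 at chr3:59747277-61251459. The gene model ENSG00000285708, which overlaps the transcription factor gene FOXP1, had 7 at chr3:70959226-71754229.

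RUNX1 stood apart from the other 6 genes. Its mid-GC bins were 44.8% and 43.8% covered in 5FdUR_UGI and 67.5% and 61.6% in 5FdUR_UGI_MMR. They were 1.43% and 1.91% covered in RTX_UGI and 4.50% and 0.400% in RTX_UGI_MMR. The non-treated libraries had 1.84%, 2.09% and 3.89% as lowest, median and highest value, and K562 had 2.36%. Every 5FdUR library was thus above every other library in RUNX1, and the RTX libraries overlapped the non-treated ones.

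In the other 6 genes no RTX library exceeded 6.20%, the value of RTX_UGI_MMR replicate 1 in FHIT. RBFOX1, CTNNA2 and the FOXP1 model had 0 in all 4 RTX libraries. FHIT was 17.9% covered in both 5FdUR_UGI_MMR libraries, 0.671% and 2.13% in 5FdUR_UGI, and 0.914% to 4.77% without drug. It had 6.20% and 5.03% in RTX_UGI_MMR and 0.629% and 0.157% in RTX_UGI. FHIT, ERC2 and the FOXP1 model lie on chromosome 3, which was added to the MMR proficient cells. Its part in these values was not tested. DAB1 had 6.66% and 8.80% in 5FdUR_UGI_MMR and 1.55% to 3.25% in the other drug-treated libraries, and ERC2 had at most 2.49% in any drug-treated library. In none of the 7 genes did all drug-treated libraries separate from all non-treated ones.

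Gene-free stretches without repeated sequence were named after the values of the longest runs were seen. The longest was 1400 kb long, at chr12:125700001-127100000. It had 0 in all 4 RTX libraries, 6.42% and 10.9% in 5FdUR_UGI_MMR, 0 and 2.93% in 5FdUR_UGI, and 3.01% to 4.66% without drug. The next, 1000 kb at chr1:208400001-209400000, had 16.8% and 25.8% in 5FdUR_UGI_MMR, at most 0.240% with RTX, 0.0400% and 3.17% in 5FdUR_UGI, and 2.02% to 6.35% without drug. A run of 800 kb at chr22:34000001-34800000 had 10% and 20.3% in 5FdUR_UGI_MMR, 3.80% to 6.86% without drug and at most 0.537% with RTX. In each of these 3 runs both 5FdUR_UGI_MMR libraries were the most covered of all 15. As given above, their regions reached down to lower log2 values than those of the RTX and non-treated libraries. The remaining run, 800 kb at chr9:62400001-63200000, differed in that all 4 5FdUR libraries, with 5.02%, 9.22%, 6.02% and 10.8%, were above the non-treated libraries, with 0.643% to 1.70%, and the RTX libraries had 0 to 1.39%.

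The 6 mid-GC bins with the most protein-coding genes lay in 3 clusters of related genes, where gene models overlap and a count of genes is also a count of similar copies. The bin at chr5:140900001-141000000 overlapped 15 genes of the protocadherin alpha cluster (PCDHA1, PCDHA2 and PCDHA3 being the longest), whose products are cell adhesion molecules. It was 12.4% to 24.3% covered without drug, 18.4% in K562, and 0 to 8.10% in the drug-treated libraries, so that the classes did not overlap and the drug-treated libraries were the lower. Its neighbour at chr5:140800001-140900000, with 13 genes, had 7.40% to 20.1% without drug, 10.8% to 30.3% with RTX and 0 to 16.3% with 5FdUR.

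The histone gene cluster on chromosome 6 gave the next pair. The bin at chr6:26100001-26200000 overlapped 12 genes, among them H2BC4, H2AC6 and H2BC5, which encode core histones. It had 15% and 39.9% in 5FdUR_UGI_MMR, 1.9% and 11.1% in 5FdUR_UGI, 5.60% to 10% with RTX and 0.200% to 4.90% without drug. The bin at chr6:26000001-26100000, with 11 genes including HFE and H1-1, had 33.1% and 47.2% in 5FdUR_UGI_MMR and 10.2% and 23.3% in 5FdUR_UGI. It had 0.100% to 8.50% with RTX and 0 to 7.90% without drug. The keratin-associated protein genes on chromosome 17 supplied the last pair, with 11 genes each, at chr17:41000001-41100000 and chr17:41100001-41200000. These bins were 36.2% and 29%, and 49.4% and 43.1% covered in 5FdUR_UGI_MMR. The first had 27.4% and 1.0% in 5FdUR_UGI, 0 to 36% with RTX and 3.30% to 13.1% without drug. The second had 2.5% and 20.3% in 5FdUR_UGI, 0 to 12.6% with RTX and 4.20% to 17.7% without drug.

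Single bins were counted where the 8 drug-treated and the 6 non-treated libraries did not overlap. Of the mid-GC bins 823 (12.6%) were higher in every drug-treated library, against 15.2% of all autosomal bins, and 212 (3.25%) were lower, against 23.5%. By gene share, the higher bins made up 5.99% of bins without a gene, 22.9% and 22.5% of the bins of above 0 to under 50% and 50% to under 80%, 13.3% at 80% to under 95%, and 6.70% at 95% or more. The lower bins made up 1.83% to 4.38% of these classes. Both counts depended on the region threshold: with a common log2 value of at least 0.33 for all libraries they were 14 and 675, and without 5FdUR_UGI_MMR replicate 2 they were 963 and 393. The 823 bins formed 615 runs of at most 5 adjacent bins, and the 212 bins 197 runs of at most 3.

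Between the drugs, 895 mid-GC bins (13.7%) were higher in every 5FdUR library than in every RTX library, against 12.0% of all autosomal bins, and 998 (15.3%) were lower, against 13.3%. The bins higher with RTX made up 2.14% of gene-free bins and 37.8% of bins of 80% to under 95% gene share. The bins higher with 5FdUR made up 15.6% and 9.74% of the same classes.

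The longest runs are described by the values that chose them. Genes are named where they overlap a run, also where they extend beyond it. A run at chr6:47000001-47500000 overlaps CD2AP, an adaptor of the kidney filtration barrier, TNFRSF21, a death receptor, and ADGRF1, an adhesion receptor. It was 62.9% and 36.2% covered in 5FdUR_UGI, 37.8% and 34.4% in 5FdUR_UGI_MMR, 20.5% to 33.6% with RTX and 1.92% to 5.02% without drug. A run at chr6:137700001-138200000 overlaps ARFGEF3, PERP, a desmosomal target of p53, and TNFAIP3, an inhibitor of NF-κB signalling. It was 86.9% and 87.2% covered in 5FdUR_UGI, 65.6% and 58.7% in 5FdUR_UGI_MMR, 42.6% to 50.2% with RTX and 3.88% to 6.48% without drug. A run at chr6:143800001-144300000 overlaps UTRN, the dystrophin relative utrophin, PHACTR2 and PLAGL1, an imprinted zinc finger gene. It had 62.7% to 83.0% in the RTX libraries, 70.7% and 54.8% in 5FdUR_UGI, 30.8% and 28.9% in 5FdUR_UGI_MMR and 2.66% to 6.80% without drug, so that 5FdUR_UGI overlapped RTX and 5FdUR_UGI_MMR lay below it.

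The runs lower in every drug-treated library were short. The gene-free one at chr3:34000001-34300000, from which the LINC01811 stretch was taken, had 3.87% to 7.90% without drug, 8.87% in K562, at most 0.400% with 5FdUR and 0 in the RTX libraries. One at chr2:2300001-2500000 overlaps MYT1L, a neuronal transcription factor gene, and had 11.3% to 17.7% without drug, 0 to 5.80% with 5FdUR and 0 with RTX. One at chr2:102800001-103000000 overlaps TMEM182 and had 9.0% to 13.1% without drug, 0 to 3.80% with 5FdUR and 0 with RTX.

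Chromosomes differed in the coverage of their mid-GC bins. In the drug-treated libraries the mean was 22.5 ± 4.86% (SD, n = 8) on chromosome 6 (414 bins) and 20.8 ± 3.09% on chromosome 1 (582 bins), and it was 4.92 ± 1.62% on chromosome 16 (175 bins) and 4.62 ± 4.08% on chromosome 19 (89 bins). Without drug these chromosomes had 4.30%, 4.03%, 3.30% and 4.52%. On chromosome 6 the 5FdUR libraries, with 24.6% to 29.4%, were above the RTX libraries, with 15.4% to 23.4%, and on chromosome 22 (37 bins) the RTX libraries, with 14.8% to 16.1%, were above the 5FdUR libraries, with 6.61% to 13.5%. The repeated bins lay on 10 of the 22 autosomes, and their part in these values was not tested.

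Across the 6520 bins, as a description, coverage ranked with gene number at a Spearman rho of 0.41 to 0.43 in the RTX libraries, 0.30 and 0.18 in 5FdUR_UGI, 0.00 and -0.06 in 5FdUR_UGI_MMR and 0.07 to 0.12 without drug. The ratio of observed to expected CpG had rho of 0.20 to 0.25 with RTX, 0.18 and 0.13 in 5FdUR_UGI and -0.30 in both 5FdUR_UGI_MMR libraries. Mean coverage over bins correlated with r of 0.60 between RTX and 5FdUR_UGI, 0.49 between 5FdUR_UGI and 5FdUR_UGI_MMR, and -0.05 between RTX and 5FdUR_UGI_MMR. These bins share libraries and base composition, and neighbouring bins share regions.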

How the data were processed

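U-DNA-Seq was analysed in 15 region files of single enriched libraries, with 7 region files of merged replicates as an alternative. Input and mock samples were not used. Per the methods and the submitters' processing notes, GRCh38 alignment (BWA 0.7.17-r1194) was followed by deduplication (Picard), by filters that left uniquely mapped reads outside a blacklist, and by smoothed coverage (deepTools 3.2.1). The authors deposited the regions above a log2 threshold with a log2 value of enriched over input coverage, whose column has no heading. This value was used only for 2 alternatives and for the lowest values of the libraries given above. The threshold was set for each library, so total length (321 to 331 Mb without drug, 502 to 555 Mb with drug) follows from that choice. The region files give no depth, and precision rests on the spread between libraries. The 2 replicates of a condition are biological replicates per the methods.

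Covered known bases were summed in bins of 100 kb with genes of GENCODE release 44. Gene share and gene number were taken from protein-coding genes. The ratios within a library were compared by two-sided exact permutation tests over libraries, with Benjamini-Hochberg adjustment over 8 contrasts and a threshold of 0.05, and the calculation was tested on simulated data. Libraries were grouped by their labels into 8 drug-treated and 6 non-treated. Alternatives were other bin sizes, known shares, region lengths, log2 cuts, merged or shared regions, annotations, gene share limits, standardised classes, a replicate block and leaving out chromosome 3 or a replicate. Leaving out bins of repeated sequence was added after seeing the data. Named loci are the 8 genes with the most mid-GC bins, the 4 longest gene-free runs, the 6 bins with the most genes, and the 3 longest runs separated in each direction; 1 of the 8 genes is not reported here. The members, lists and limits were chosen with earlier results of these data known. Python 3.11.15, NumPy 2.4.6, pandas 2.3.3 and matplotlib 3.10.9 were used.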

Additional observations from a re-analysis of the deposited data

Results flagged for a closer look

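In the ratio of bins of at least 80% gene share to gene-free bins, RTX_UGI_MMR replicate 1 lay apart from the other RTX libraries on the log2 scale, at 1.69 against 1.92 to 1.95. The gap to its nearest neighbour was a larger part of the range of the 4 libraries than Dixon's limit allows, which chance alone exceeds in about 1 in 20 groups.

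The MMR states lay on opposite sides of 0 with 5FdUR. The mean log2 relative coverage of mid-GC bins was -0.23 in 5FdUR_UGI and 0.11 in 5FdUR_UGI_MMR. The mean log2 ratio of bins of 3 or more genes to bins of 1 gene was 1.24 in 5FdUR_UGI and -0.45 in 5FdUR_UGI_MMR. Both libraries of each condition had the sign of its mean, and the differences were not tested.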

How the results depend on the processing

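The log2 relative coverage of mid-GC bins, drug-treated against non-treated, stayed positive in every alternative run, at 1.13 to 2.38. It missed the threshold after adjustment of the exact p with bases called in both replicates (1.86, adjusted p = 0.114) and with merged files (1.64, adjusted p = 0.114). There 7 conditions stand in for the libraries, the exact p was 0.0286 in both, and only drug-treated against non-treated contrasts were adjusted together. Leaving out 1 library gave 1.28 to 1.36. With all annotated genes the drug-treated against non-treated difference passed for gene share (1.52) and gene number (1.06), as did gene share for 5FdUR against RTX (-2.43). Leave-one-out ranges were 0.64 to 1.01, 0.48 to 0.80 and 0.65 to 0.88 for gene share, gene number and flanks in drug-treated against non-treated. For 5FdUR against RTX they were -2.36 to -2.10, -1.54 to -0.85, -1.27 to -1.05 and, for relative coverage, -0.01 to 0.15, which turned direction without 5FdUR_UGI_MMR replicate 2 (-0.01). Without that library the gene number and flank differences, drug-treated against non-treated, and the gene share and flank differences, 5FdUR against RTX, passed. In each of these 5FdUR against RTX calls, as in that with all annotated genes, the exact p stayed at 0.0286 and only the adjusted value moved. A common log2 value of 0.33 also turned relative coverage of 5FdUR against RTX, to -0.26. The flank ratio, drug-treated against non-treated, passed with bins of 50 kb (1.04), with the common log2 value (0.94) and without chromosome 3 (0.81). It was 0.09 as a mean over 6 classes of 0.5% GC and 0.33 in bins of 200 kb. Where the 7 conditions stood in for the libraries, it did not pass. It was then 0.90 (exact p = 0.2, adjusted p = 0.4) with bases called in both replicates and 0.78 (exact p = 0.257, adjusted p = 0.486) with merged files. Among alternatives that changed no call, gene share, drug-treated against non-treated, ranged from 0.18 against genic neighbours within 1 Mb to 1.52 in bins of 200 kb. Gene number ranged from 0.27 in bins of 50 kb to 1.02 in bins of 200 kb. For 5FdUR against RTX, gene number ranged from -1.87 with the common log2 value to -0.62 in bins of 50 kb, and the flank difference was -0.69 in bins of 200 kb.

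The count of bins higher in every drug-treated library, 823, was 426 with regions of at least 5 kb, 14 with the common log2 value and 90 with the highest log2 values up to 300 Mb. The count of lower bins, 212, was 34, 675 and 573 in the same order, 140 in bins of 200 kb (4.15% of 3377 bins, against 3.25% of 6520), 708 with bases called in both replicates and 737 with merged files. Leave-one-out counts were 828 to 963 and 213 to 393, the highest without 5FdUR_UGI_MMR replicate 2, the library with 19.0 Mb above the common log2 value. These counts rest on the authors' thresholds; the cause of each shift was not tested.

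Same-numbered replicates did not clearly deviate together (r of -0.21 to 0.29 over 21 pairs of conditions), and the numbers were not taken to pair the libraries. These correlations cannot exclude shared batches. With the replicate block the relative coverage difference was 1.32 (adjusted exact p = 0.00653) and no call changed. Leaving out the bins of repeated sequence changed no call, but turned the gene share ratio of 5FdUR_UGI replicate 1 from 0.17 to -0.03.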
